A study of Triticum aestivum and Triticum monococcum subsp. aegilopoides x Triticum urartu with 8 samples.

Results

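Type I hybrid necrosis of hexaploid wheat was compared with a wild-type hybrid of common wheat on 4 of the 8 arrays of the series. The members are the 2 arrays labelled type I necrosis and the 2 labelled wild type of common wheat, chosen by these labels alone. RNA came from the first leaf of untreated seedlings of *Triticum aestivum* hybrids grown at 23 °C for 1 week, and each sample was hybridised to 1 single-colour Agilent array. Each group is a hybrid plant, and the series design names the wild-type hybrid as the reference; the parents and necrosis loci of these hybrids are not given in the sources used here. The design text speaks of independent experiments, but no label says whether the arrays of a group hold different plants; the p-values measure the spread between these samples only, and that spread may be technical. The groups are different hybrids, so necrosis and any other difference of genotype cannot be told apart, and in whole leaves fewer cells of a type and less RNA per cell cannot be told apart either. The other 4 arrays, of diploid hybrids with type IV necrosis and their wild type, enter only where a difference between the responses is tested.

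In hybrid necrosis, leaf tissue of a hybrid dies although both parents are healthy, with no pathogen needed. In plants it typically arises when alleles that are harmless in each parent meet in the hybrid, and it is widely viewed as a misdirected immune response. In common wheat the classical form is set off by complementary dominant genes, one from each parent, and yellowing and death spread along the leaf blade.

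The 4 arrays lay on 1 slide, with type I at positions 1 and 2 and wild type at positions 3 and 4, so position and group cannot be told apart. Across deciles of array row the median change ran from 0.03 to 0.09 on the log2 scale, and across deciles of array column from 0.04 to 0.10. Each array holds 37826 transcript probes, of which 27437 to 28765 were well above background, and no transcript spot was saturated. Levels below are log2 of the processed intensity less the 75th percentile of the array. That percentile was an intensity of 1681 and 1734 in wild type and of 2409 and 2222 in type I. Over the 28585 probes tested, levels correlated at r = 0.997 between the wild-type arrays, at 0.998 between the type I arrays and at 0.945 to 0.947 between groups, across probes, which are not independent replicates. The arrays carry probes named after contigs and clones of expressed sequence tags, and no probe matched a term of the lists for defence, oxidative stress, photosynthesis, senescence, cell cycle, epidermis, reference or endosperm genes. The leaf label could therefore not be checked against marker genes. Names below are those of the array, and no gene is assigned to them.

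The comparison asked which transcripts of the leaf had another level in the necrotic hybrid. Small rises were many and large falls dominated. Of the 28585 probes, 10962 rose (38.3%) and 8419 fell (29.5%) in limma's moderated test at a Benjamini-Hochberg adjusted p under 0.05, together 19381 probes or 67.8%. A measured size of 2-fold or more was reached by 1239 rises (4.33%) and 2617 falls (9.16%), and one of 4-fold or more by 217 rises (0.759%) and 895 falls (3.13%). Of 8-fold or more there were 74 rises (0.259%) and 429 falls (1.5%). With normexp background correction the rises of 2-fold or more numbered 729, and those of 8-fold or more 22, with 206 falls. The share of falls among the called probes increased with the size of the change, from 37.4% below 2-fold to 62.8% at 2- to 4-fold, 76.5% at 4- to 8-fold, 81.5% at 8- to 32-fold and 95.6% at 32-fold or more.

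**Figure D1:**
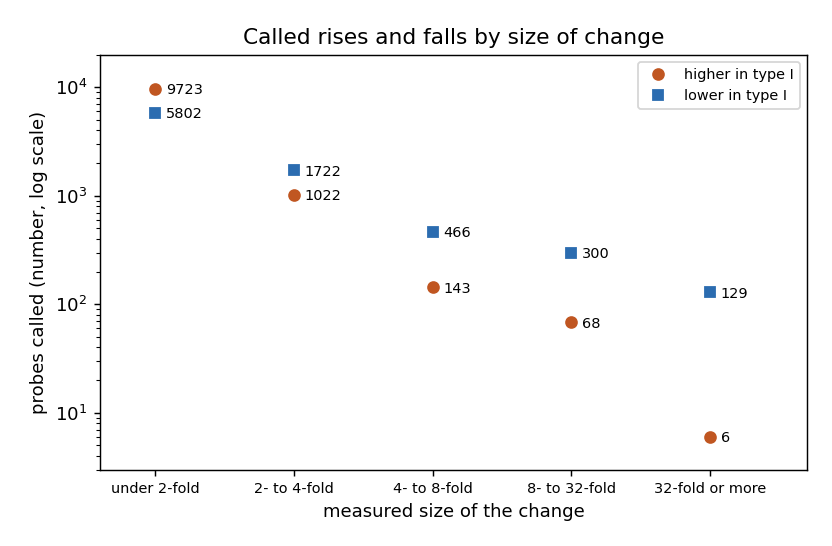
Number of called probes (vertical axis, log scale) by measured size of the change (horizontal axis), with circles for probes higher in type I and squares for probes lower. Below 2-fold there were 9723 rises and 5802 falls, and at 32-fold or more there were 6 rises and 129 falls.

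The same order was found among the 26826 probes well above background on all 4 arrays. Of these, 36 rose and 167 fell by 8- to 32-fold, and 1 rose and 65 fell by 32-fold or more. With spike-in scaling the order at 2-fold turned, to 3496 rises and 1689 falls, while at 8-fold falls stayed the more numerous (114 rises and 328 falls). The spike-in controls placed the 75th percentile of type I 0.40 higher than that of wild type on the log2 scale. The mean log2 spike-in signal was 8.87 and 8.55 in wild type and 8.71 and 8.79 in type I. The wild-type arrays thus disagreed by nearly as much as the shift, which is uncertain. Of the called falls, 2575 were smaller than 0.40 and 5844 were larger. The median SE was 0.24 with spike-in scaling, against 0.053, and the calls with it were 12570 rises and 2906 falls.

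The arrays of a group lay close together, and very small differences were therefore called. The median SD of a probe over 2 arrays was 0.050 in wild type and 0.037 in type I on the log2 scale. Called changes had a median size of 0.49, and 11387 of them were under 1.5-fold. The smallest called rise was that of rwhoh3l11, from 0.48 and 0.48 in wild type to 0.61 and 0.59 in type I (log2 change 0.12, SE 0.039, limma adjusted p = 0.0488). For rwhyf27b03 the rise was also 0.12 (adjusted p = 0.0498). MUGEST2003_23lib_Contig21027_1137 had the smallest called fall, from 0.79 and 0.80 to 0.67 and 0.67 (log2 change -0.12, adjusted p = 0.0483), and wheat0130Contig15354 was next (-0.12, adjusted p = 0.0493). Tested against a change of 1.5-fold in place of 0, 1801 probes rose and 3109 fell.

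Precision followed brightness. Among the 901 probes with a mean level under -6 over the 4 arrays, the median SD was 0.215 in wild type and 0.112 in type I, and 59.2% were called. Of the 3610 probes with a mean level over 2, where the median SDs were 0.038 and 0.026, 74.3% were called. Falls of at least 8-fold made up 11.2% of the dimmest class and 0.665% of the brightest, and rises of that size 1.55% and 0.0277%. A probe that is bright in one group and dark in the other has a low mean level, so the classes do not sort probes independently of the change.

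**Figure D2:**
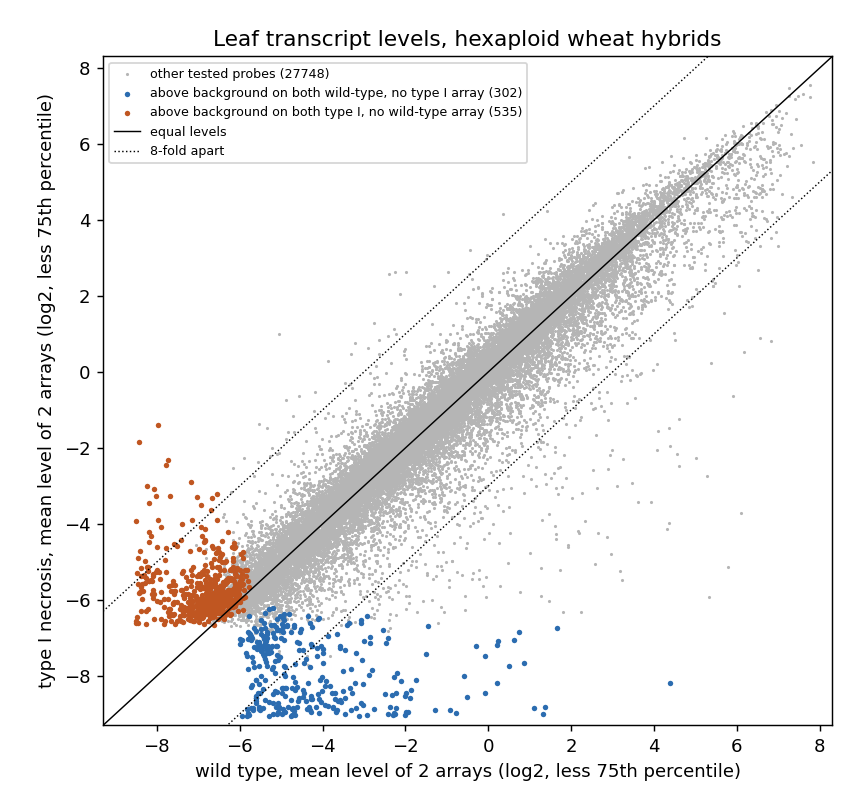
Mean level of each tested probe in wild type (horizontal axis) and in type I necrosis (vertical axis), both in log2 less the 75th percentile of the array. Blue points are the 302 probes above background in wild type alone, orange points the 535 of the converse set, and dotted lines mark 8-fold; the blue points reach much farther from the line of equal levels.

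The falls of largest size were measured for probes that were bright in wild type, as the choice fixes: the lowest levels well above background in type I were -6.69 and -6.79, so a probe above background there could fall this far only from a high level. The probe whsh_allContig1037 stood at 5.33 and 5.31 in wild type and at -6.02 and -5.84 in type I. It fell by 11.25 on the log2 scale (SE 0.074, limma adjusted p = 1.61e-05). Its mean intensity was 68272 in wild type and 38.0 in type I. For rwhsh15n12 the levels were 5.77 and 5.78 in wild type and -5.11 and -5.13 in type I, and the probe fell by 10.90 (SE 0.039, adjusted p = 1.48e-05). The arrays of a group nearly coincided beside these distances, and on the type I arrays both probes were still above background.

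The probe whsh_allContig574 was at 6.11 and 6.07 in wild type and at -3.74 and -3.71 in type I. It fell by 9.81 (SE 0.042, adjusted p = 1.48e-05), from a mean intensity of 116247 to 175. Among the remaining falls of this kind, whsh_allContig946 was at 2.25 and 2.24 against -6.35 and -6.27 (change -8.55) and whsh_allContig1026 at 4.35 and 4.27 against -4.25 and -4.01 (change -8.44). For whsh_allContig50 the levels were 4.41 and 4.31 in wild type and -3.92 and -4.03 in type I (change -8.33). Groups did not overlap for any of them, but this held for 85.7% of all tested probes, and the choice by size favours it. Of these 8 largest falls among probes above background on all arrays, 6 carry names that begin with whsh or rwhsh. Names beginning whsh_all made up 3.18% of all tested probes, and the share of rwhsh names was not counted. The median level of whsh_all in wild type was 2.19 and 2.16, beside -1.36 and -1.36 over all tested probes. A choice that needs a high wild-type level therefore favours these names, and the count is no result about them.

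Both other members of that list had another name. The levels of whfl_allContig550 were 3.20 and 3.26 in wild type and -5.51 and -5.42 in type I (change -8.69, SE 0.055). Those of wheat0130Contig13798 were 3.12 and 3.23 against -5.49 and -4.96 (change -8.40, SE 0.195), with the widest spread of the 13 named falls. The limma adjusted p-values of the named falls lay between 1.48e-05 and 6.42e-05.

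A set of 302 transcripts was above background in wild type alone (both of its arrays and no array of type I), and 300 of these fell. They were chosen for being bright in wild type and dark in type I, so the direction and count restate that choice. For such a probe only a lower bound of the fold can be given, as the mean of the bright group against the higher of the probe's own value and the lowest signal well above background on each dim array. The bound reached 8-fold for 84 of the called probes and 32-fold for 22, with a median of 4.01-fold. The probe whsh_allContig461 was at 4.39 and 4.35 in wild type and dark in type I, at least 2216-fold lower (limma adjusted p = 1.48e-05). The level of wheat0130Contig15644 was 1.59 and 1.70 in wild type, and type I was at least 328-fold lower. For whsh_allContig737, at 1.56 and 1.20 in wild type, the bound was 278-fold.

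Both remaining probes of this kind came from one contig collection. MUGEST2003_23lib_Contig14582_393 was at 1.34 and 1.30 in wild type and at least 267-fold lower in type I. MUGEST2003_23lib_Contig25028_1666 was at 1.14 and 1.08 and at least 231-fold lower. The choice fixes that the groups lie apart for these 5 probes. Their mean intensity in type I was 4.55 to 21.9, beside medians of 4.50 to 6.38 on the negative control spots of the 4 arrays.

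The largest rises were smaller than the largest falls. They started from lower wild-type levels, which the choice by direction and size favours. The probe wheat0130Contig3604 was at -5.08 and -5.0 in wild type and at 0.97 and 1.04 in type I, a rise of 6.04 on the log2 scale or 66.0-fold (SE 0.055, limma adjusted p = 1.89e-05). The probe wheat0130Contig6216 rose 31.2-fold, from -2.41 and -2.38 to 2.55 and 2.59. A rise of 29.4-fold was measured for rwhkv9g07_465, from -2.19 and -2.29 to 2.66 and 2.62. These 3 probes thus moved from below the median level of the tested probes, -1.36, to above the 75th percentile of the array.

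MUGEST2003_23lib_Contig8413_514 rose 24.5-fold, from -1.99 and -1.99 to 2.63 and 2.62. MUGEST2003_23lib_Contig3816_293 rose 18.1-fold, from -2.06 and -2.20 to 2.03 and 2.06. Groups were again far apart, with each type I array more than 4 log2 units above both wild-type arrays. The rises of wheat0130Contig6637, wheat0130Contig12896 and MUG004H05R990615 were 18.0-fold, 17.9-fold and 17.9-fold, and their type I levels, at -1.37, 0.30 and -0.73, were lower than those of the other 5.

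In the converse set, above background in type I alone, were 535 transcripts, of which 368 rose, with a median bound of 1.35-fold. Here too the direction is fixed by the choice. Only 7 reached a bound of 8-fold and 0 a bound of 32-fold. The probe wheat0130Contig6895 was at -1.39 and -1.41 in type I and higher than in wild type by at least 27.9-fold (limma adjusted p = 4.90e-05). For wheat0130Contig5996, at -1.82 and -1.84, the bound was 20.7-fold (adjusted p = 6.64e-05). The bounds of wheat0130Contig10320, wheat0130Contig982 and rwhyf23f20 were 14.8-fold, 13.6-fold and 9.84-fold. The median level of the 535 probes in type I was -5.89, while the 302 probes of the other set had a median of -4.74 in wild type. The lowest levels well above background were -6.43 and -5.97 in wild type and -6.69 and -6.79 in type I. A dim probe could thus pass in type I and fail in wild type at an equal level. How far this sets the size and dimness of the set of 535 was not tested.

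**Figure D3:**
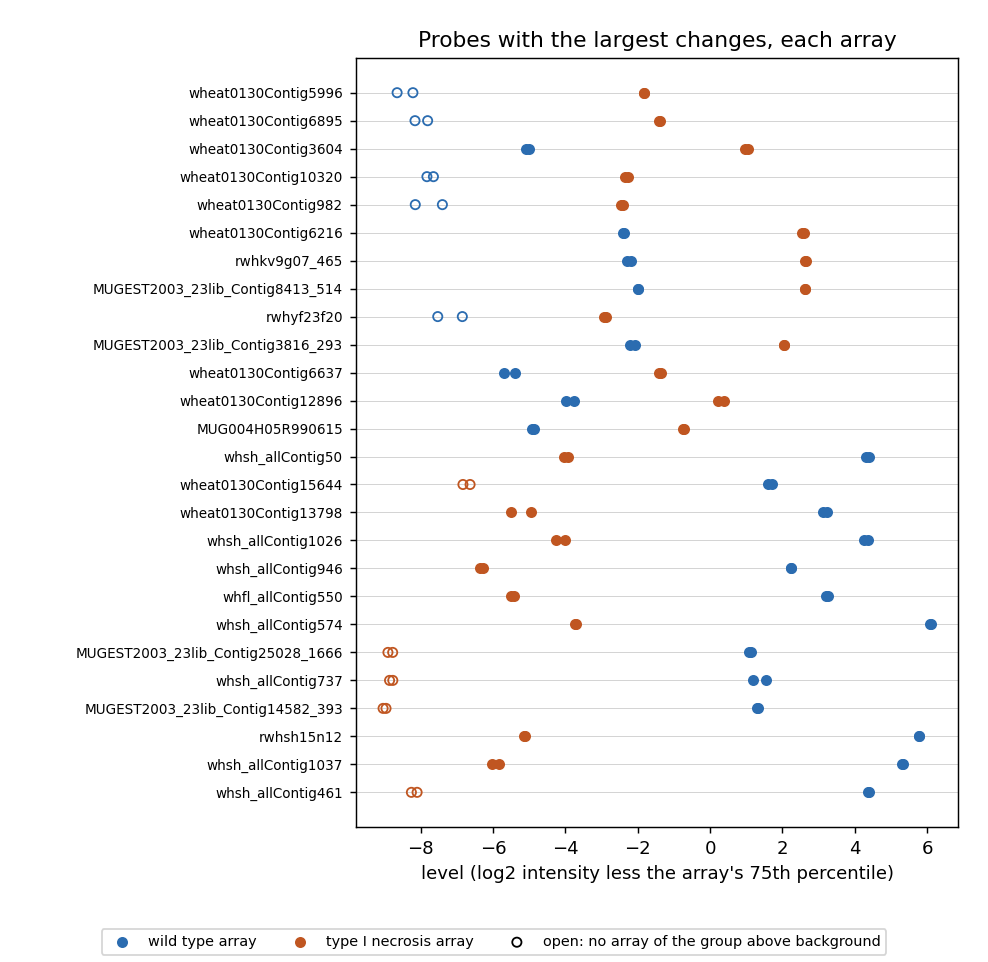
Level of each of the 26 probes with the largest changes on each of the 4 arrays (horizontal axis, log2 intensity less the 75th percentile of the array), blue for wild type and orange for type I, open where no array of the group was well above background. The groups do not overlap for any probe, as for 85.7% of all tested probes, and the arrays of a group nearly coincide for most.

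The brightest transcripts of the wild-type leaf were mostly lower in type I. Of the 100 brightest wild-type probes, 86 fell and 0 rose, 60 of them by at least 2-fold and 7 by at least 8-fold, with a median change of -1.19. Choosing probes by their wild-type level favours falls, and of the 100 brightest type I probes 20 rose and 39 fell (median change -0.08). The lists share 44 probes. The wild-type list held 15.1% and 14.6% of the signal in wild type and 8.59% and 8.80% in type I.

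Within this list the changes were far from uniform. The brightest wild-type probe, MUG005A09R990206, fell 4.97-fold, from 7.91 and 7.78 to 5.48 and 5.58 (limma adjusted p = 0.000102). The level of whsh_allContig881 was 7.61 and 7.49 in wild type and 5.95 and 5.97 in type I, a 3.01-fold fall (adjusted p = 0.000152). By contrast rwhsh4o05, at 7.86 and 7.67 against 7.20 and 7.28, fell by 0.52 on the log2 scale (adjusted p = 0.00673), a call lost with spike-in scaling. The level of MUGEST2003_23lib_Contig8430_301 was highest of all in type I, at 7.51 and 7.58 against 7.84 and 7.69 (difference -0.22, adjusted p = 0.0512).

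The other probes at the top of the type I arrays differed little between the groups. The differences were 0.22 for MUG018H09R990609 (adjusted p = 0.114) and 0.01 for whfl_allContig1603 (adjusted p = 0.895). Falls of 0.28 and 0.21 were called for wheat0130Contig12924 and wheat0130Contig6917 (adjusted p = 0.0277 and 0.0145), but with spike-in scaling these differences were 0.12 and 0.19 and with quantile normalization 0.052 and 0.098, none of them called. The direction of so small a difference thus rests on the scaling.

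One group of probe names had the largest share of falls. The array names fall into 35 groups of at least 100 tested probes by their leading letters, and the share called ran from 51.6% to 82.4% over these groups, beside 67.8% of all tested probes. The highest share belonged to whsh_all, a set of contigs with 908 tested probes, of which 584 fell (64.3%) and 164 rose (18.1%). Of all tested probes 29.5% fell. At least 2-fold, 37.9% of the whsh_all probes fell and 0.771% rose. The median change was -0.55, beside 0.07 over all tested probes. This group was picked after the values were seen, so no test is given. The lower median was not particular to type I. In the diploid the median type IV change of whsh_all was -1.12, beside -0.04 for the probes tested in both wheats. In another name group, of 142 tested probes, 5.63% fell by at least 8-fold, beside 6.83% of whsh_all.

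The levels of whsh_all shifted on all arrays of a group alike. Its median level was 2.19 and 2.16 in wild type and 1.37 and 1.39 in type I, while the median over all tested probes was -1.36 and -1.36, then -1.38 and -1.39. The whsh_all probes were bright, and the larger share of falls was found in each class of mean level: 68.9% against 31.1% of all probes with a mean level over 2, 56.6% against 28.0% between 0 and 2, and 69.3% against 30.3% between -4 and -2. They made up 3.18% of the probes tested, 14.5% of the falls of at least 8-fold and 24.0% of those of at least 32-fold. These shares of large falls were not compared within classes of level, and a brighter probe has more room for a measured fall. With spike-in scaling the median of whsh_all was -0.16 and that of all probes 0.46, and 362 whsh_all probes fell while 180 rose.

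**Figure D4:**
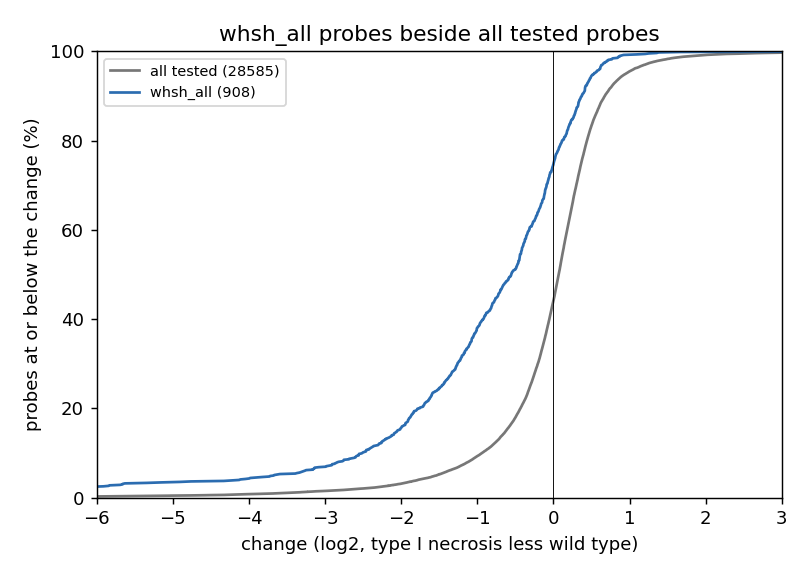
Percentage of probes (vertical axis) at or below a given log2 change of type I less wild type (horizontal axis), for the 908 whsh_all probes and for all 28585 tested probes. The whsh_all curve lies to the left, with a median of -0.55 beside 0.07.

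Many cDNA clones are represented by probes of which one bears the name of the other with a leading r, which gives a second reading of the same clone name on the same arrays. Of 1841 such pairs, 1060 had both probes tested. Of all probes in the 1060 pairs 63.4% were called, and both probes were called in 504 pairs (47.5%). In 271 of the 504 both rose, in 200 both fell, and in 33 they were called in opposite directions, so 93.5% had the same direction. Across the 1060 pairs the changes correlated at r = 0.727 (Spearman's rho = 0.747), as a description of probes that share arrays and clone name, and the median gap between the changes was 0.15 on the log2 scale.

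Large falls were seen by both probes of some clones and by a single probe of others. In 14 pairs at least 1 probe fell 8-fold or more, and in 6 of these both did. The probe whdl6j11 was at -1.31 and -1.23 in wild type and at -5.62 and -5.13 in type I, a fall of 4.10 on the log2 scale (limma adjusted p = 0.000216), and its partner rwhdl6j11 fell by 5.04, from 2.96 and 2.99 to -2.02 and -2.10 (adjusted p = 2.13e-05). Likewise whyd19b03 fell by 3.97 and rwhyd19b03 fell by 4.06, although their levels in wild type were more than 3 log2 units apart. Partner probes of different brightness thus both fell for these clones. The sizes were close for whyd19b03, while for whdl6j11 the brighter partner fell farther.

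Other clones gave unlike readings. The probe rwhe8d06 fell by 5.35, from 2.01 and 2.04 to -3.27 and -3.38, while whe8d06 fell by 0.72, from -0.27 and -0.37 to -1.06 and -1.02 (adjusted p = 0.000777). For rwhyf23f20, named above among the rises from background, the partner whyf23f20, above background on all 4 arrays, differed by -0.26 (adjusted p = 0.088). Opposite calls of at least 2-fold were found for 3 clones. They were whr1h21 (-1.29 and 1.56 for the probe with the leading r), whr8l11 (-2.65 and 1.20) and whyf29n17 (-1.99 and 1.30), of which the pair of whr1h21 was above background on all 4 arrays. Whether paired probes detect the same transcript was not tested.

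**Figure D5:**
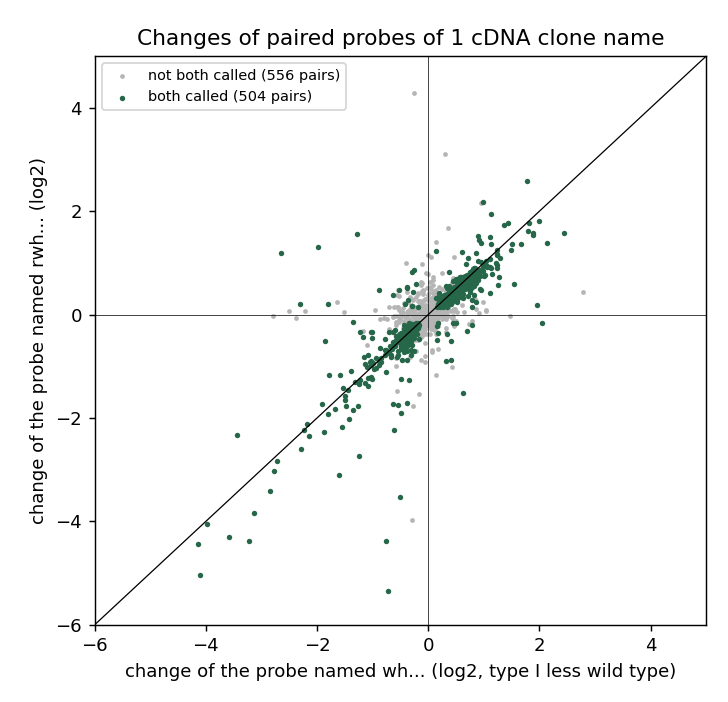
Log2 change (type I less wild type) of the probe bearing the clone name (horizontal axis) and of its partner with a leading r (vertical axis) for 1060 pairs, green where both were called (504 pairs). Most green points lie along the line of equal change, and 33 have opposite signs.

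Among 91 contigs with 2 tested probes, both were called for 38. In 5 of these both rose, in 19 both fell and in 14 the directions were opposite, a same-direction share of 63.2%. The contigs pool MUGEST pairs named with p and m and other pairs in which one name adds the suffix 2. These kinds of pair may differ and were not compared. The median gap was 0.57 on the log2 scale. For whsh_allContig94 one probe fell by 8.03, from 5.31 and 5.26 down to -2.74 and -2.76, and the second, whsh_allContig94_2, fell from -4.49 and -4.92 to values not well above background, at least 4.11-fold lower. For wheat0130Contig6062 the probe with the suffix 2 fell by 3.72 and the other had a difference of -0.24 (adjusted p = 0.247).

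Just 6 probes bear gene symbols of the lists, all in that for cold, drought and abscisic acid, and 1 of them was tested. RD29B, named for a gene of Arabidopsis that responds to dehydration and abscisic acid, was at -4.78 and -5.08 in wild type and at -5.02 and -5.13 in type I (difference -0.15, SE 0.117, limma adjusted p = 0.326). The groups overlapped. Wcor15, named for a cold-responsive chloroplast protein of wheat, and RD29A, cor47, DREB2A and DREB2B, known from Arabidopsis as stress-responsive genes and as transcription factors that act in drought and heat, were not well above background on any of the 4 arrays. No statement on their change is possible.

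The diploid arrays show where the type I response differs from that in type IV necrosis. Of 23562 probes tested in both wheats, the effects differed at 12970 (55.0%) in limma's test of type IV less type I over all 8 arrays, and at 29 of the 32 named probes tested, most of which were chosen for extreme type I values, so that this count is no result about them. The wheats lay on separate slides, so levels are compared only within a wheat. For 4 of the 11 named falls tested in both, the levels in the diploid went the other way. Over all 23562 probes the type IV change had a median of -0.04 and quartiles of -0.84 and 0.56, so either direction was common. The level of whfl_allContig550 was 0.11 ± 0.10 (SD, n = 2) in diploid wild type and 5.82 ± 0.31 in type IV, so that the effects differed by 14.41 (SE 0.21, limma adjusted p = 9.0e-07). The level of wheat0130Contig13798 was 0.05 ± 0.12 and 5.62 ± 0.29, and the difference of effects 13.97.

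The same held for a further pair of probes, which were dark in type I, so that the size of the difference is a measured value and not exact. The level of wheat0130Contig15644 was -0.15 ± 0.14 in diploid wild type and 5.37 ± 0.16 in type IV, with a difference of effects of 13.90. That of whsh_allContig737 was 0.80 ± 0.09 and 7.01 ± 1.19, with a difference of 16.40 (SE 0.71). These 4 probes therefore stood 5.53 to 6.21 higher in type IV than in its wild type on the log2 scale, and lower in type I than in the hexaploid wild type. Whether they detect separate transcripts was not tested.

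The other 7 named falls tested in both wheats had a lower mean in type IV than in its wild type too, each by less than in type I. They were chosen as the largest type I falls, which favours a smaller change in type IV, and for whsh_allContig461 and MUGEST2003_23lib_Contig14582_393 the difference was not called with normexp background correction. The type IV differences were -2.41 for rwhsh15n12, -3.62 for whsh_allContig574, -4.81 for whsh_allContig946, -5.19 for whsh_allContig1026 and -4.95 for whsh_allContig50. Those of whsh_allContig461 and MUGEST2003_23lib_Contig14582_393, both dark in type I, were -8.17 and -6.78. Of the 8 named rises tested in both, 6 had a higher mean in type IV as well. The means of wheat0130Contig6637 and rwhyf23f20 were lower there, with type IV differences of -1.47 and -1.01. The effect in type IV was larger for MUG004H05R990615 (6.90, difference 2.74, limma adjusted p = 0.00033). The probe rwhkv9g07_465 was dark in diploid wild type, so its type IV effect has no exact size, and the difference of effects was 2.23 as measured (adjusted p = 0.0023) and -0.19 with normexp background correction (adjusted p = 0.644).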

How the data were processed

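Spot intensities were made by the authors using the scanner software Feature Extraction (version 10.10.1.1, protocol GE1_1010_Sep10, per the file headers; 9.5 per the submitters' processing notes). Processed intensities were taken as deposited; the steps that made them are not given in the sources used here. Log2 was taken and the 75th percentile over the transcript spots of each array subtracted. Tested probes were those flagged well above background throughout 1 group or more; 2 probes with outlier spots were left out (68 over the 8 arrays). Fits used limma 3.58.1 in R 4.3.3 (lmFit, eBayes; 2 residual and 2.07 prior degrees of freedom), two-sided, with Benjamini-Hochberg adjustment over all tested probes. The difference from type IV was fitted over 8 arrays. The code was tested on simulated data. The number of arrays limits the precision.

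Named probes are the 8 rises and 8 falls of largest change above background on all 4 arrays, the 5 rises and 5 falls of largest bound, the 5 brightest of each group, the smallest called changes (2 rises, 2 falls) and probes with listed gene symbols; probe pairs and the whsh_all details were added after seeing the data. Members and lists were chosen with earlier results of these data known. Alternatives were normexp correction (offset 50, on the median spot signal in place of the planned mean signal), median, quantile and spike-in scaling, the authors' value table, other filters, other fits and leaving out arrays. No sequences are shown, since none were used. The authors' deposited value table holds the processed intensity times 1 factor per array within 1% for 99.0% to 100% of spots, so it is linear and not centred; its medians were 335 and 338 in wild type and 333 and 327 in type I, and the rule behind the factors is unknown.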

Additional observations from a re-analysis of the deposited data

Results flagged for a closer look

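The difference of effects, type IV less type I on the log2 scale, was called for 29 of the 32 named probes tested in both wheats, beside 55.0% of all probes tested in both; most named probes were chosen for extreme values on these arrays, so the count is no result about them. Among the named falls it was 14.41 for whfl_allContig550, 13.97 for wheat0130Contig13798, 13.90 for wheat0130Contig15644, 16.40 for whsh_allContig737, 8.49 for rwhsh15n12, 6.19 for whsh_allContig574, 3.74 for whsh_allContig946, 3.24 for whsh_allContig1026, 3.38 for whsh_allContig50, 4.38 for whsh_allContig461 and 3.53 for MUGEST2003_23lib_Contig14582_393. The type IV arrays differed widely for whsh_allContig461 (SD 2.19) and MUGEST2003_23lib_Contig14582_393 (SD 1.80), and neither difference was called with normexp correction.

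Among the named rises the difference was -3.26 for wheat0130Contig6216, 2.23 for rwhkv9g07_465, -0.84 for MUGEST2003_23lib_Contig8413_514, -3.56 for MUGEST2003_23lib_Contig3816_293, -5.64 for wheat0130Contig6637, 2.74 for MUG004H05R990615, -4.65 for wheat0130Contig6895 and -5.30 for rwhyf23f20.

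Smaller differences were called for bright probes and for the probes of least change: -0.89 for rwhsh4o05, -0.90 for MUGEST2003_23lib_Contig8430_301, -0.78 for MUG018H09R990609, -1.33 for whfl_allContig1603, -0.96 for wheat0130Contig6917, 0.57 for rwhoh3l11, -0.81 for rwhyf27b03, -1.38 for MUGEST2003_23lib_Contig21027_1137, -0.48 for wheat0130Contig15354 and -0.75 for RD29B. The values of wheat0130Contig15644, whsh_allContig737, whsh_allContig461 and MUGEST2003_23lib_Contig14582_393 (dark in type I), of wheat0130Contig6895 and rwhyf23f20 (dark in hexaploid wild type) and of rwhkv9g07_465 and wheat0130Contig6895 (dark in diploid wild type) are differences as measured, with no exact size and no bound given.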

How the results depend on the processing

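The count of 19381 called probes was 12249 with all 8 arrays in 1 fit (6607 rises) and 4910 with treat against 1.5-fold (1801 rises, 3109 falls). Spike-in scaling gave 2906 falls; at 2-fold it gave 3496 rises and 1689 falls, and at 8-fold 114 rises. Normexp gave 729 rises at 2-fold, and 22 rises and 206 falls at 8-fold. The filter on all 4 arrays left 37 rises and 232 falls at 8-fold, fewer probes being tested. Without 1 array the calls numbered 14472 to 19275, with 7795 to 10901 rises and 6628 to 8660 falls. The other counts stayed within 1.5 times.

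Whether equal replicate numbers pair the arrays is not stated. The replicate differences of the groups correlated at -0.05, which cannot settle the design. The replicate block gave 18056 calls (10117 rises, 7939 falls). All 26 named probes of largest change kept direction in each alternative run that tested them. They kept the call in each such run that left out no array. Those with a dark group were not tested in the run limited to probes above background on all 4 arrays. The choice of the largest changes favours this stability. Signs turned for small changes. With quantile normalization the change was 0.052 for wheat0130Contig12924, 0.098 for wheat0130Contig6917 and 0.051 for wheat0130Contig15354. With spike-in scaling it was 0.12, 0.19 and 0.27 for these 3 probes and 0.27 for MUGEST2003_23lib_Contig21027_1137. The difference of effects turned to -0.19 for rwhkv9g07_465 with normexp. With quantile normalization within each wheat it turned to 0.27 for rwhsh4o05, 0.37 for MUGEST2003_23lib_Contig8430_301, 0.33 for MUG018H09R990609 and 0.30 for wheat0130Contig6917. With spike-in scaling it turned to 0.27 for wheat0130Contig15354 and 0.0058 for RD29B. None of these turned values was called, and the cause was not tested. A block for slide or position could not be fitted, since the 4 arrays share a slide and position follows the groups. Dim probes limit the sizes: for type I against wild type, folds of named probes with a dark group are bounds, while differences of effects that rest on a dark group are only as measured.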

Other observations

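In some smaller name groups the share of rises, or of rises of at least 2-fold, was larger than over all tested probes. Of 101 tested probes with names beginning whkv, 18 rose by at least 2-fold (17.8%) and 15 fell (14.9%), beside 4.33% and 9.16% of all tested probes, and rwhkv9g07_465, a largest rise, has a related name. In rwhr, 22 of 219 probes rose by at least 2-fold (10%) and 12 fell, and in whr 26 of 307 rose (8.47%) and 18 fell. In whrd 63 of 117 probes rose (53.8%) and 18 fell (15.4%), with a median change of 0.34. At 2-fold or more, 9 whrd probes rose and 8 fell. At 8-fold or more, 0 probes rose in whkv, rwhr, whr or whrd, while 2, 3, 0 and 1 fell. These groups and thresholds were picked after seeing the values and were not tested. In the diploid, the median type IV change of 838 whsh_all probes tested there was -1.12, beside -0.04 for the 23562 probes tested in both wheats.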
